A study of Mus musculus with 7 samples.

Results

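The regions described are the Chd7 peaks of wild-type granule neuron progenitors (GNPs) that lay at active elements between genes. They were chosen by the measured peaks themselves. A Chd7 peak was taken if its summit was on chromosomes 1 to 19 or X, more than 1 kb from every annotated transcript start and outside the body of every protein-coding gene, if it overlapped a peak of acetylated histone H3 lysine 27 (H3K27ac) by at least 1 bp, and if it overlapped no Chd7 peak of *Chd7*-deficient GNPs. Of 1946 Chd7 peaks, 361 met the rule. The other peaks of wild-type (WT) GNPs were 838 at active promoters, 311 at active elements inside genes and 359 without H3K27ac, while 31 were shared with *Chd7*-deficient GNPs and 46 were not placed on these chromosomes.

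Chromatin immunoprecipitation with sequencing (ChIP-seq) was carried out on cerebellar cells of C57BL/6 mice (C57BL/6N in the study's methods) at postnatal day 7 (P7), with 1 library per condition. Freshly isolated GNPs of WT mice gave the Chd7 and H3K27ac tables, and GNPs of a *Chd7* knockout gave the control Chd7 table. Cerebellar granule neurons (CGNs), obtained by culturing GNPs for 48 h without Sonic hedgehog, gave a Top2b table from WT and from *Chd7*-deficient cells. The knockout was described by the study as *Atoh1-Cre::Chd7* f/f, in which Cre is driven in the granule lineage from the progenitor stage on. The study noted Chd7 protein left in the posterior lobe, so some cells of the knockout may have kept it. How many animals were pooled for a library is not given in the sources used here, and the GNPs and CGNs are different stages of the same lineage. The labelled cell type was checked with H3K27ac at transcript starts. All 12 markers of GNPs, among them Atoh1, Neurod1, Pax6 and Zic1, carried a peak there, with a highest fold enrichment of 3.55 for Atoh1 to 33.8 for Meis1 and a median of 19.7. Of 25 markers of other cerebellar cells, 9 carried one, at a highest fold enrichment of 2.41 for Pecam1 to 7.84 for Fabp7, so that the ranges overlapped. Besides Pecam1 and Fabp7 these were Mbp (7.30), Slc1a3 (6.54), Sox9, Pax2, Pdgfra, Csf1r and Gfap. The remaining markers, among them Olig2, Sox10, Aif1 and Pcp2, carried none. The part of other cells in the results below was not tested.

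Chd7 is an ATP-dependent chromatin remodeller that slides nucleosomes and is mutated in CHARGE syndrome. H3K27ac marks nucleosomes beside active promoters and enhancers, and an element far from any promoter that carries the mark is usually read as an enhancer. Granule progenitors divide in the outer cerebellum under Sonic hedgehog and are specified by basic helix-loop-helix (bHLH) factors such as Atoh1 and Neurod1, which bind the E-box CANNTG. Nuclear factor I (NFI) proteins act later in the same lineage. Top2b is the type II topoisomerase of postmitotic neurons, an enzyme that passes one DNA duplex through another and so relieves supercoils.

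The sequences under the Chd7 summits held E-boxes more often than the DNA beside them, and the following windows, 50 bp to each side of a summit, show what these elements look like. All are read on the plus strand of mm10 (GRCm38), are centred on the Chd7 summit, lie between protein-coding genes and are named by the nearest protein-coding transcript start. Capitals mark 2 E-boxes, CAGATG on either strand and the palindrome CAGCTG, and an element of NFI proteins, TGCCAA on either strand. The first 4 are those of highest Chd7 fold enrichment, apart from a peak near Zfp608 that is not shown.
Pla2g4a, chr1:149672228-149672328, plus strand: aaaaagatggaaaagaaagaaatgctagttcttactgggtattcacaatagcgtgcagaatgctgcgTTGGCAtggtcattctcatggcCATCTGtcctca
Gpm6a, chr8:55373912-55374012, plus strand: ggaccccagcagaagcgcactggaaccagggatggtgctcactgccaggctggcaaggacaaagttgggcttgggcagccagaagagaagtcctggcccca
Cyp2j5, chr4:96697749-96697849, plus strand: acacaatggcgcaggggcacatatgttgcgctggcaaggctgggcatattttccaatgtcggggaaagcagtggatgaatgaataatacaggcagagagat
Frk, chr10:34904390-34904490, plus strand: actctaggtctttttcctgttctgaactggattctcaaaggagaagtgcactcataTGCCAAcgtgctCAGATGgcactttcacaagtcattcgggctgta
The next 4 are further high peaks, shown for their Top2b state, with a Top2b peak in both kinds of CGNs (Kif16b), in WT CGNs alone (Tmem161b) and in *Chd7*-deficient CGNs alone (Stard3nl and *Chd7* itself).
Kif16b, chr2:142437789-142437889, plus strand: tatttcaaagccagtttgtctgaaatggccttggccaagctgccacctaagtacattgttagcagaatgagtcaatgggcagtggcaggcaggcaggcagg
Tmem161b, chr13:84571540-84571640, plus strand: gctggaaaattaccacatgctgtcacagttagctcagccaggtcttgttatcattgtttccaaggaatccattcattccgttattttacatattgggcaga
Stard3nl, chr13:19300570-19300670, plus strand: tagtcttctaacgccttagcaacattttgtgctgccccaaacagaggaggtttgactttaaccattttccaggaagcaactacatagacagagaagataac
Chd7, chr4:9019471-9019571, plus strand: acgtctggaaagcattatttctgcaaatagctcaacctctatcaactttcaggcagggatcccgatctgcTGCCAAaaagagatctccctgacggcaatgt
The last 3 come from genes or stretches with several of these Chd7 peaks and were picked after counting, to show windows with at least 1 of these motifs.
1190002N15Rik, chr9:94342254-94342354, plus strand: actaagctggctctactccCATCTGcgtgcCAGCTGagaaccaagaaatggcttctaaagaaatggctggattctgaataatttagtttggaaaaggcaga
Mpdz, chr4:81937491-81937591, plus strand: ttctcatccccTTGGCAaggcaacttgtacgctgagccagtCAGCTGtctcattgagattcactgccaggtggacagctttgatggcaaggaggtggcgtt
Tmem161b, chr13:84348235-84348335, plus strand: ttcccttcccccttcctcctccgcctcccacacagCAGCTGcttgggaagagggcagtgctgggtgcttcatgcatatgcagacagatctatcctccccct
Of the 11 windows printed, 6 held at least 1 of the 3 motifs within 50 bp of the summit, and these include the last ones, picked for holding them. The strongest 3 of those printed show the range, since the window near Pla2g4a held a marked E-box and an NFI element while those near Gpm6a and Cyp2j5 held none of the 3 motifs.

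Over all 361 peaks, 304 windows of 100 bp to each side of the summit (84.2%, 95% Wilson interval 80.1 to 87.6) held a CANNTG E-box. The same length of DNA 1 kb to the left and to the right of the same summits held one in 67.6% and 64.0%. The excess lay in certain E-boxes. CAGATG was found in 150 summit windows (41.6%, 36.6 to 46.7), against 16.1% (13.6 to 18.9) of the flanking windows, and CAGCTG in 99 (27.4%, 23.1 to 32.2), against 8.31% (6.51 to 10.6). At the summits of 7344 intergenic distal H3K27ac peaks without Chd7, CAGATG stood in 18.9% and CAGCTG in 12.6% of the windows. Those windows are centred on H3K27ac summits, which at the 361 peaks lay a median of 323 bp from the Chd7 summit. The H3K27ac peaks without Chd7 were also weaker, with a median fold of 3.89, against 8.48 for the strongest one at each of the 361. What centring and strength contribute to this and later contrasts with H3K27ac summits was not tested. The intervals of the Chd7 peaks and of both backgrounds did not overlap for either E-box. Intervals cover counting error only, and no test was run, since peaks of 1 library are not replicates.

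Of the 10 possible E-boxes, CAGCTG and CAGATG had the highest ratios of summit to flank, 3.30 and 2.59. The others stood between 0.814 for CACATG and 1.75 for CAATTG, and CACGTG, the E-box of Myc and of several other bHLH factors, was in 2.77% of summit windows and 3.05% of flanks. CAGATG and CAGCTG are the letters that proneural bHLH factors such as Atoh1 and Neurod1 are known to bind. Among all 2079 words of 6 letters within 50 bp of the summits and flank centres, counted with no motif chosen in advance, CAGATG also had the largest difference, at 25.2% of Chd7 summits against 8.03% of flanks. The overlapping words AGATGG (19.4% against 7.76%) and ACAGAT (16.1% against 6.23%) were among the leading 20. Words that are part of neither E-box were among them too, and GCCAGC (18.8% against 5.82%) and CACAGC (18.3% against 5.68%) had larger differences than CAGCTG (15.2% against 3.46%) and TGCCAA (16.3% against 5.12%).

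The NFI element was also more frequent at the summits. TGCCAA was present in 98 summit windows (27.1%, 22.8 to 32.0), against 9.70% (7.75 to 12.1) of flanks and 12.7% of H3K27ac summits without Chd7. The full NFI palindrome was in 1 window only. CTGCCA, which shares most of the NFI letters, was the word with the second largest difference, at 22.7% against 7.48%. At least 1 of these 3 motifs was in 263 windows (72.9%, 68.0 to 77.2), against 30.3% of flanks and 37.9% of H3K27ac summits without Chd7, and all 3 were in 8. An E-box of either kind stood together with TGCCAA in 53 windows (14.7%, 11.4 to 18.7), and 58 windows held at least 2 such E-boxes. Intragenic distal Chd7 peaks had close shares, with CAGATG in 43.7%, CAGCTG in 29.6% and TGCCAA in 34.1%, and their intervals overlapped those of the intergenic peaks. Active promoters bound by Chd7 had 9.07%, 12.8% and 7.64%, below the intervals of the intergenic peaks, and instead held CGCG in 74.1% of windows, against 8.31% of the intergenic ones and 3.05% of their flanks.

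Matches gathered at the summit, as plotted by distance. CAGATG reached 14.1% of peaks in the 50 bp to the right of the summit and 13.3% in the 50 bp to the left, and stayed between 1.66% and 5.82% in every bin beyond 500 bp. CAGCTG reached 8.31% in the 50 bp to the right and 7.76% in the 50 bp to the left. TGCCAA was at 9.97% and 6.65% there, and its highest bin, 10.2%, lay 100 to 150 bp to the right. Per kb and peak, CAGATG fell from 2.77 matches within 50 bp of the summit to 0.861 between 500 and 1000 bp, CAGCTG from 1.61 to 0.485 and TGCCAA from 1.80 to 0.676. TGCCAA was the flattest near the summit, with 1.64 matches per kb still at 100 to 250 bp.

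**Figure D1:**
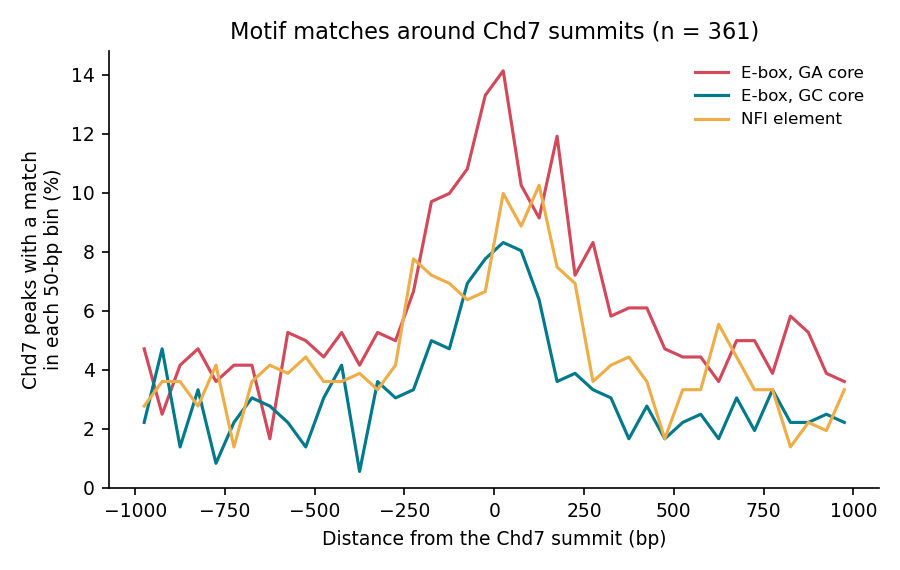
Share of the 361 intergenic distal active Chd7 peaks (vertical axis, percent) with a motif match in each 50-bp bin, by distance from the Chd7 summit in bp (horizontal axis), for both E-boxes (GA core and GC core) and the NFI element. All 3 lines are highest within 150 bp of the summit, where the GA-core E-box reaches 14.1%, and are low beyond 500 bp.

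Further elements were counted in the same way. TGACAG, the element of Meis factors, was in 22.2% of summit windows (18.2 to 26.7) and 13.9% of flanks, and CCTGCTG, a Zic element, in 10.8% (8.004 to 14.4) and 4.29%. At H3K27ac summits without Chd7 these were in 16.2% and in 8.05% (7.45 to 8.69), and for the Zic element that interval overlapped the one of the summit windows. AACAAT, the Sox element, was in 8.59% of summit windows and 11.1% of flanks. TGANTCA, the AP-1 element, was in 4.99% and 6.51%, and TAATTA, a homeodomain element, in 6.93% and 5.26%. For each of these last elements the intervals of summit windows and flanks overlapped. TGGGTGGTC, the long form of the Gli element, was in 0 of 361 windows, which allows up to 1.05%. The CTCF core was in 4 windows (1.11%, 0.432 to 2.81), against 0.139% of flanks (0.0245 to 0.780, overlapping) and 0.0953% of H3K27ac summits without Chd7. Unacetylated Chd7 peaks also had it in 1.11%. A match is a string of letters and not evidence that the factor was bound. The summit windows also had more G and C, with a median of 50.2% (49.3 to 51.2) against 47.3% at H3K27ac summits without Chd7, and a mean of 7.78% repeat-masked bases against 14.4%. Base composition moves with these motif shares, and its part in them was not tested.

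By the Chd7 measurement that chose them, the 361 peaks were modest in height. The pileup at the summit ranged from 14 to 50 fragments with a median of 22, and the fold enrichment over local background from 2.49 to 9.82 with a median of 4.21. Widths ran from 304 to 1364 bp with a median of 435 bp. The median fold enrichment was 4.07 for intragenic distal, 3.98 for active promoter and 4.12 for unacetylated Chd7 peaks, so the classes stood close together. H3K27ac fold enrichment, taken from the strongest overlapping peak, had a median of 8.48 and spread far more, from 2.40 to 49.5. For 219 of the peaks (60.7%) H3K27ac covered the whole Chd7 peak. The summits seldom coincided, with a median offset of 323 bp and 119 of the 361 within 250 bp.

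**Figure D2:**
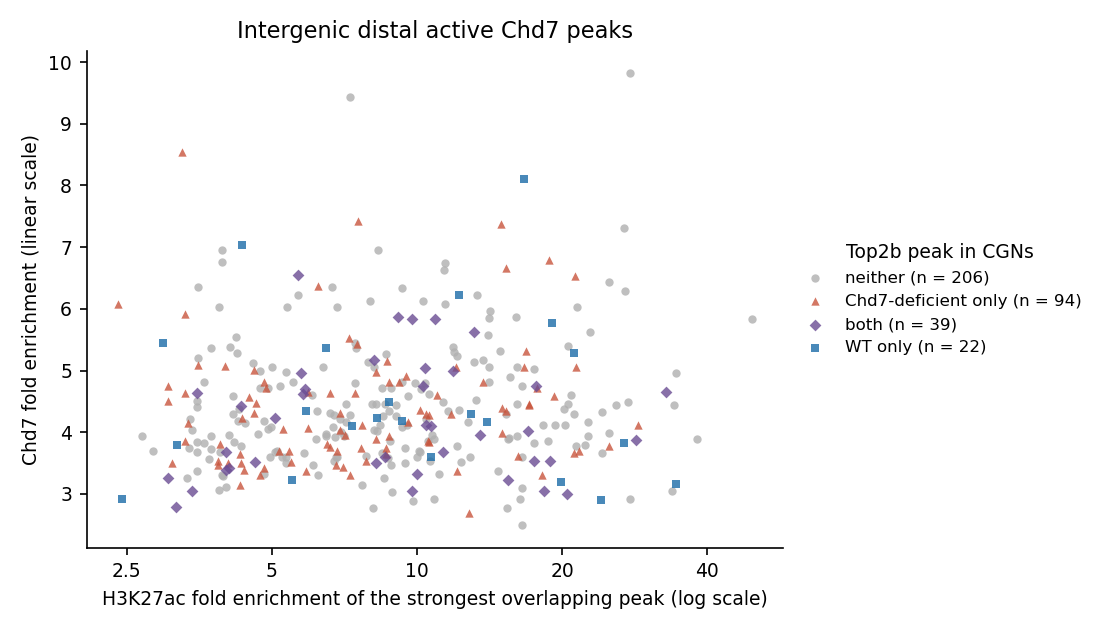
Chd7 fold enrichment (vertical, linear axis) against H3K27ac fold enrichment of the strongest overlapping peak (horizontal, log axis) for the 361 peaks, each point 1 peak, with colour and shape giving the Top2b state in CGNs. Points of all 4 states are mixed along both axes, with Chd7 fold from 2.49 to 9.82 and H3K27ac fold from 2.40 to 49.5.

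The highest peak lay 229.9 kb downstream of Pla2g4a, the gene of a cytosolic phospholipase, at chr1:149671939-149672527. It had a Chd7 fold enrichment of 9.82, 36 fragments and an H3K27ac fold of 27.7. The gene itself had no H3K27ac at its start, and the nearest protein-coding gene with one, Odr4, was 720.4 kb away. The second, at chr8:55373765-55374130, was 419 kb downstream of Gpm6a, which encodes a neuronal membrane glycoprotein of growth cones, with a Chd7 fold of 9.43 and an H3K27ac fold of 7.25. The start of Gpm6a carried both H3K27ac and Chd7. The third, at chr18:55379495-55380192, stood 387 kb upstream of the zinc finger gene Zfp608 with a Chd7 fold of 8.54 but an H3K27ac fold of only 3.25. The others of the 10 highest included peaks nearest to Cyp2j5, a cytochrome P450 (8.10), Frk, a tyrosine kinase (7.42), Tmem161b (7.31), Epb41l4a (7.03), Dppa2 (6.96) and G2e3, a ubiquitin ligase (6.95). Of these 10, 5 were nearest to a gene with H3K27ac at its start and 3 lay in super-enhancer-like domains, described below. Of all 361, these were 247 and 68. For the 10, distances to the nearest protein-coding start ran from 33.6 to 421 kb.

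Distance was part of the rule and is given as a description. The median distance from a summit to any transcript start was 23.6 kb (20.5 to 27.8), and to a protein-coding start 107 kb (77.8 to 128). The nearest start belonged to a processed pseudogene for 104 peaks, to a protein-coding gene for 91 and to a lincRNA for 68. Within 5 kb of any start there were 44 peaks, 190 were over 100 kb from a protein-coding start and 32 over 500 kb. The farthest were 1354 kb from Cntnap5a, a neurexin-family cell-surface gene, 1209 kb from G6pd2 and 1202 kb from Celf4, which encodes a neuronal RNA-binding protein. Inside the bodies of genes that are not protein-coding lay 50 peaks. At the 1 kb limit, the members nearest to it were 1002 bp (Ccdc91, Chd7 fold 4.34) and 1032 bp (Rfx7, 3.31) from a start, while the nearest peaks left out were 928 bp (Abra, 4.49) and 918 bp (Ndfip2, 4.27) away.

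**Figure D3:**
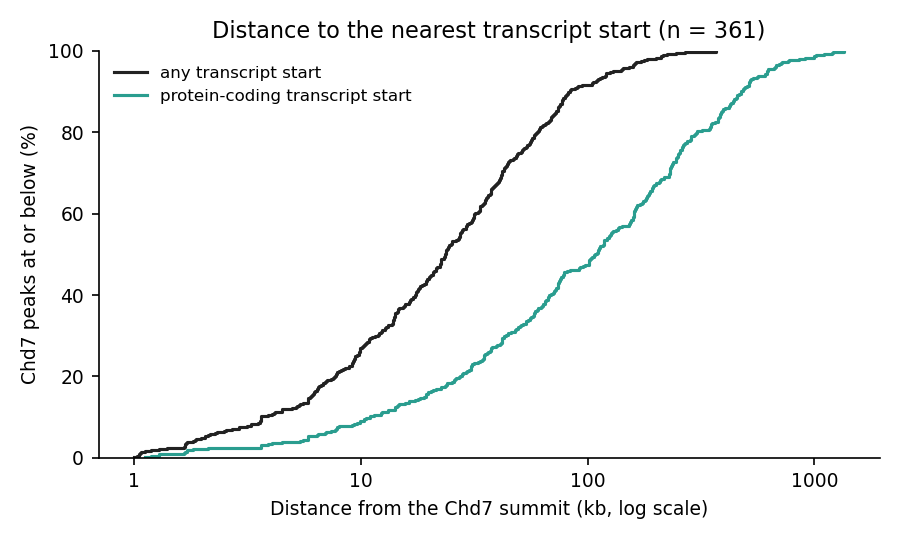
Cumulative share of the 361 Chd7 peaks (vertical axis, percent) by distance from the summit to the nearest transcript start of any kind and to the nearest protein-coding start (horizontal axis, kb, log scale). The median is 23.6 kb for any start and 107 kb for protein-coding starts.

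The nearest protein-coding start carried H3K27ac for 247 peaks (68.4%, 63.5 to 73.0) and a Chd7 peak for 47 (13.0%, 9.93 to 16.9). For intergenic distal H3K27ac peaks without Chd7 the shares were 66.3% and 8.82%, so that the first was close to its background, while the interval of the second lay above it. That interval treats peaks near the same gene as separate, and Zfp608 alone gave 9 of the 47 and Klhl29 gave 4. A Chd7 peak reaching within 1 kb of a start was counted, which could be the edge of the intergenic peak itself. Nearness does not show which gene an element acts on, and contacts between elements and promoters were not measured. For 235 peaks the nearest acetylated gene was also the nearest gene. In all, 291 genes were nearest to a peak, 247 of them to 1, 30 to 2 and 14 to 3 or more.

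The genes with several peaks had broad neighbourhoods. Zfp608 led with 9 peaks, spread from 48.0 kb to 557 kb from its start on both sides, with Chd7 folds of 3.595 to 8.54. Top2b peaks of *Chd7*-deficient CGNs overlapped 6 of the 9 and those of WT CGNs 2, and none lay in a super-enhancer-like domain. Mpdz, the gene of a scaffold protein with many PDZ domains, had 5, of which 4 were in such domains. Map3k1, a kinase of the MAP kinase cascade, had 4 within 72.9 kb, all 4 in domains, with Chd7 folds of 3.37 to 4.46. Klhl29 had 4 within 91.5 kb, 621 to 712 kb from its start, and no Top2b peak at any of them. Plscr5 and Tmem161b also had 4 each, and Dtwd2, Eno1b and Ubash3b were among those with 3. A single peak 101.2 kb upstream of Apc, a tumour suppressor gene of Wnt signalling, lay within 100 kb of both peaks near Epb41l4a, with a Chd7 fold of 4.09 and 5 matches of CAGATG in its window. Over the 14 genes, 54 peaks were counted, 25 in domains, with Top2b at 9 in WT and 17 in *Chd7*-deficient CGNs. Of all 361 peaks, 68 were in domains, and 61 and 133 had Top2b.

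*Chd7* was itself among these genes. Its 3 peaks lay downstream, at chr4:8929185-8929676, chr4:9011081-9011520 and chr4:9019271-9019983, which is 74.1, 156 and 164 kb from its nearest start. Their Chd7 folds were 4.80, 3.74 and 6.66 and their H3K27ac folds 7.43, 9.44 and 15.3. All 3 were in super-enhancer-like domains, and the farthest carried a Top2b peak in *Chd7*-deficient CGNs, 371 bp from the Chd7 summit. Chd2, a remodeller of the same family, had a single peak 76.4 kb upstream with the highest H3K27ac fold of all 361, 49.5. These 4 peaks, at 2 genes, were all that was nearest to the 38 chromatin remodellers and topoisomerases searched (1.11%, 0.432 to 2.81), against 0.626% of H3K27ac peaks without Chd7.

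Super-enhancer-like domains were built by joining H3K27ac peaks within 12500 bp and ranking the regions by width times pileup, which gave 612 of 17539 regions. They held 68 of the 361 Chd7 peaks (18.8%, 15.1 to 23.2), in 55 domains, against 9.56% of intergenic distal H3K27ac peaks without Chd7. Intragenic distal Chd7 peaks had a higher share, 29.9% (25.1 to 35.2), and active promoters bound by Chd7 a close one, 18.5%. The H3K27ac signal enters both the rule and the domains, so these shares are a description. The domain ranked first held both peaks nearest to Ppara, a nuclear receptor gene, with Chd7 folds of 4.96 and 3.16. The domain of rank 4 held both peaks nearest to Mef2c, a transcription factor of neurons, with 4.11 and 3.05. Chd7 folds had a median of 4.22 inside domains and 4.21 outside. CAGATG was in 50% of the summit windows inside and 39.6% outside, CAGCTG in 20.6% and 29.0%, and TGCCAA in 19.1% and 29.0%. The E-boxes thus differed in opposite directions, and no intervals were computed for these motif shares.

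Transcription factors of the granule lineage were nearest to 12 peaks at 7 of the 74 genes searched (3.32%, 1.91 to 5.72), against 3.4% of H3K27ac peaks without Chd7. Meis1, a homeodomain factor expressed throughout the lineage, had 2, of which the stronger was 431 kb downstream with a Chd7 fold of 4.75 and Top2b in both kinds of CGNs, and the other 1.82 kb upstream with a fold of 3.05 and an H3K27ac fold of 33.8. Zic4, one of the zinc finger genes of cerebellar growth, had 3 with Chd7 folds of 4.28 to 4.72. Barhl2, a homeobox gene, had 1 at 37.4 kb with a fold of 4.45. The highest was 425 kb from Sall1 (5.12), whose start had no H3K27ac. Mef2c and Uncx had 2 each and Etv1 had 1.

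Genes of Sonic hedgehog signalling and its mitogenic targets were nearest to 4 peaks (1.11%, 0.432 to 2.81), against 0.98%. One was 29.4 kb upstream of Ccnd2, which encodes the D-type cyclin of GNPs, at chr6:127181375-127181763. It had a Chd7 fold of 4.69 and Top2b centres 20 and 19 bp from the summit in WT and *Chd7*-deficient CGNs. The others were near Cxcr4, the chemokine receptor that holds GNPs at the pial surface (4.004), Igf1r, a growth factor receptor (3.66), and Boc, a Sonic hedgehog co-receptor (3.30). Cell cycle genes were nearest to 3 (0.831%, 0.283 to 2.41), against 1.03%, and besides Ccnd2 these were the antiproliferative genes Btg1 (4.61) and Btg2 (4.34). Of the 41 genes listed for Bmp, Notch and Wnt signalling, none was nearest to a peak. The list does not hold Apc, named above, so this is no absence near Wnt genes at large. For the list, 0 of 361 allows up to 1.05%, against 0.449% of H3K27ac peaks without Chd7. No peak was nearest to a marker of other cerebellar cell types either, against 0.354%.

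Axon guidance and migration genes were nearest to 10 peaks (2.77%, 1.51 to 5.02), against 1.91%. Robo1, a receptor for Slit proteins, had the strongest, at chr16:73107548-73108441, 102 kb downstream of its start, with a Chd7 fold of 6.63 and 39 fragments. Marcks, a regulator of actin at the membrane, had 3 with folds of 4.27 to 5.06, Plxna2, a semaphorin receptor, had 1 (5.06) and Epha4, an ephrin receptor, had 1 (4.51). Cell adhesion genes were nearest to 6 (1.66%, 0.764 to 3.58), against 1.74%, among them the cadherin genes Cdh8 with 2 (5.27 and 3.94) and Cdh18 (3.602) and the neuronal immunoglobulin genes Negr1 (3.94) and Ntm (3.67). Synapse and ion channel genes were nearest to 8 (2.22%, 1.13 to 4.31), against 1.5%. After Gpm6a these were led by Cadps2, which primes dense-core vesicles for release, at chr6:23873805-23874319, 34.6 kb upstream of its start (6.13), the potassium channel gene Kcnj3 with 2 (5.85 and 5.32) and Syn2, a synapsin (5.39). For each of these lists the interval of the Chd7 peaks included its background. Over all 10 lists, 46 peaks were nearest to 35 listed genes, and 43 of the 46 were nearest to a gene with H3K27ac at its start, against 247 of all 361. The lists include the 12 GNP markers, all acetylated at their starts, and the share for listed genes in general was not computed.

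The study's own list of genes lower in *Chd7*-deficient GNPs was chosen on cells of the same kind and is not independent evidence. Its genes were nearest to 17 peaks at 15 genes (4.71%, 2.96 to 7.41), against 2.97% of H3K27ac peaks without Chd7. All 17 were nearest to a gene with H3K27ac at its start, against 68.4% of all 361, and the share for listed or expressed genes in general was not computed. They included Gpm6a, Cadps2, Kcnj3, the neurofilament gene Nefl (43.0 kb upstream, Chd7 fold 5.58) and Barhl2. The second list of the study holds 203 genes lower in CGNs both without Chd7 and with a Top2 inhibitor, all of them higher in CGNs than in GNPs, so it is a selection of the genes lower in both. These were nearest to 24 peaks at 19 genes (6.65%, 4.51 to 9.70), against 5.41%. Intragenic distal Chd7 peaks stood higher, at 12.9% for this list and 5.79% for the first. Ptchd4, a gene of the Patched-domain family, was among the 19 genes, 126 kb from a peak with a fold of 5.38. The 3 peaks near *Chd7* were counted too, although *Chd7* is the deleted gene and its lower level without Chd7 is built in. Top2b peaks overlapped 3 of these 24 in WT and 6 in *Chd7*-deficient CGNs, and 17 had neither. Among all 361 peaks the counts were 61, 133 and 206. The interval of each list included its background, for the first list only just.

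Top2b was measured in CGNs and had no part in the choice of the peaks. In WT CGNs a Top2b peak overlapped 61 of the 361 Chd7 peaks (16.9%, 13.4 to 21.1), against 5.94% of intergenic distal H3K27ac peaks without Chd7. In *Chd7*-deficient CGNs it was 133 (36.8%, 32.0 to 41.9), against 10.1%. Of the 361, 39 had Top2b in both, 22 in WT only, 94 in *Chd7*-deficient CGNs only and 206 in neither. Of the 61 with Top2b in WT, 63.9% (51.4 to 74.8) also had it in *Chd7*-deficient CGNs. That share was 59.9% for active promoter, 51.9% for unacetylated and 46.2% (33.3 to 59.5) for intragenic distal Chd7 peaks, all with overlapping intervals. It was 38.1% (33.6 to 42.7) for intergenic distal H3K27ac peaks without Chd7. Of all WT Top2b peaks, most of them away from H3K27ac, 16.8% overlapped one of *Chd7*-deficient CGNs. By these counts, more of the 361 peaks were called with Top2b in *Chd7*-deficient than in WT CGNs. The tables give positions without scores, and strength could not be compared.

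The tables differed in size, with 17030 Top2b peaks of 396 bp in WT and 21505 of 400 bp in *Chd7*-deficient CGNs, a ratio of 1.26. Counted in the same way, as Top2b peaks, the ratio was raised at H3K27ac peaks of every kind (1.93) and near 1 away from them (1.12). Counted instead as regions that overlap Top2b, it was 2.18 at the 361 Chd7 peaks. By that second count it was 1.88 at intragenic distal, 2.21 at active promoter and 1.78 at unacetylated Chd7 peaks, and 1.69 at intergenic distal H3K27ac peaks without Chd7. With 1 library each, the genotype and the library cannot be told apart. The share with Top2b was close among the Chd7 classes, at 16.7% and 31.5% for intragenic distal, 18.1% and 40.1% for promoter and 15.0% and 26.7% for unacetylated peaks in WT and *Chd7*-deficient CGNs. The intervals of the first pair overlapped those of the intergenic peaks, as did the promoter intervals, and the unacetylated interval for *Chd7*-deficient CGNs (22.4 to 31.5) lay just below that of the intergenic peaks.

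**Figure D4:**
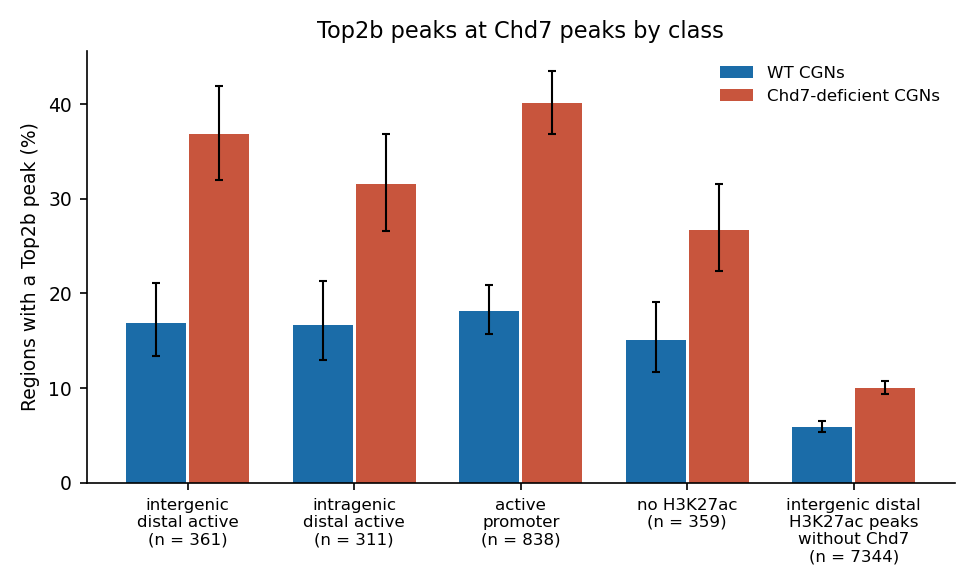
Share of regions that overlap a Top2b peak (vertical axis, percent) in WT and *Chd7*-deficient CGNs, for the intergenic distal active Chd7 peaks, the other classes of WT Chd7 peaks and intergenic distal H3K27ac peaks without Chd7, with 95% Wilson intervals that cover counting error only. The intergenic distal active Chd7 peaks are at 16.9% and 36.8%, against 5.94% and 10.1% for H3K27ac peaks without Chd7.

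Top2b centres gathered near the Chd7 summits, although the proteins were measured in different cells. Among overlapping peaks, whose widths bound the offset, the centre was within 100 bp of the summit for 21 of 61 in WT and 51 of 133 in *Chd7*-deficient CGNs. Counted in windows of equal length, a Top2b centre lay within 250 bp of 44 summits in WT (12.2%, 9.21 to 15.97) and of 28.0% (23.6 to 32.8) in *Chd7*-deficient CGNs. Around points 5 kb to the left and right of the same summits it was 3 and 1 in WT and 2 and 7 in *Chd7*-deficient CGNs, so the excess was local. At H3K27ac summits without Chd7, where the windows are centred on the acetylation peak, the shares were 3.16% and 5.42%. In 200-bp bins the count for *Chd7*-deficient CGNs reached 51 just left of the summit and 37 just right of it, and in WT 19 and 16, with 17 more at 200 to 400 bp to the right.

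**Figure D5:**
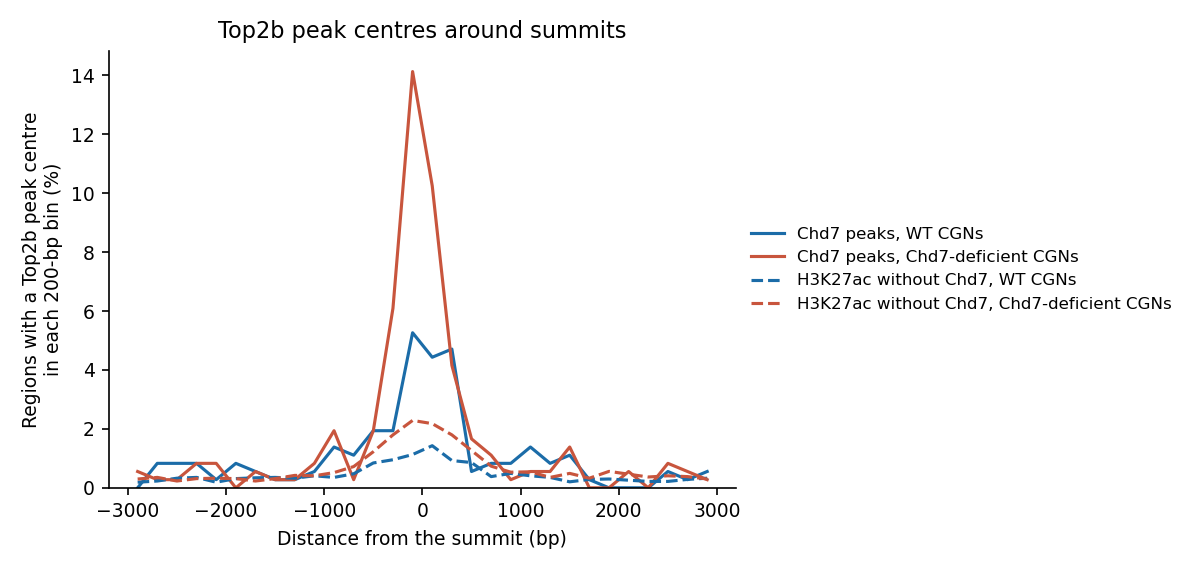
Share of regions with a Top2b peak centre in each 200-bp bin (vertical axis, percent) by distance from the summit in bp (horizontal axis), for the 361 Chd7 peaks (solid lines) and 7344 intergenic distal H3K27ac peaks without Chd7 (dashed lines), in WT and *Chd7*-deficient CGNs. Both solid lines are highest in the bin just left of the summit, where 51 of the 361 peaks hold a centre in *Chd7*-deficient CGNs, and the dashed lines stay lower there. Solid lines are centred on Chd7 summits and dashed lines on H3K27ac summits.

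Intergenic distal H3K27ac peaks with Chd7 had a median H3K27ac fold of 7.69 and those without Chd7 of 3.89, and Top2b was more often called at the stronger ones. The comparison was therefore repeated within ranges of H3K27ac fold, a choice made after the shares had been seen, with the 390 intergenic distal H3K27ac peaks that overlapped Chd7 as the unit. In the lowest range, up to a fold of 4.57, Top2b of WT CGNs was at 14.3% (8.70 to 22.6) of peaks with Chd7 and 4.14% (3.62 to 4.73) of those without. In the highest, above 12.1, the shares were 27.6% (19.7 to 37.1) and 17.7% (13.2 to 23.3). For *Chd7*-deficient CGNs they were 31.6% and 6.36% in the lowest range and 44.9% and 27.9% in the highest. In all 4 ranges the share with Chd7 was higher in both kinds of CGNs, but the intervals overlapped in the second and the highest range for WT and in the third for *Chd7*-deficient CGNs.

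Among the 361 peaks themselves, Top2b showed no steady order with Chd7 height. In groups of 90 or 91 peaks, from low to high Chd7 fold, WT shares were 25.3%, 11.1%, 13.3% and 17.8%, and those of *Chd7*-deficient CGNs 42.9%, 32.2%, 40% and 32.2%, with overlapping intervals. By distance to a start, Top2b in WT was at 22.7% of peaks within 5 kb and 20% of those over 100 kb, and 6.56% (2.58 to 15.7) between 50 and 100 kb. Inside and outside super-enhancer-like domains the WT shares were 16.2% and 17.1%, and those of *Chd7*-deficient CGNs 32.4% and 37.9%. CAGATG was in 45.7% of windows of peaks with Top2b in *Chd7*-deficient CGNs only, 45.5% with WT only, 35.9% with both and 40.3% with neither.

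The strongest peaks of each state were as follows. With Top2b in WT only, the highest were near Cyp2j5 (chr4:96697170-96698344, Chd7 fold 8.10), Epb41l4a (7.03, Top2b centre 56 bp from the summit), Tmem161b (6.23), Stpg2 (5.77) and Pcdh18, a protocadherin gene (5.45). With Top2b in *Chd7*-deficient CGNs only, they included peaks near Zfp608 (8.54), Frk (chr10:34904174-34904981, 7.42), Stard3nl (6.78, Top2b centre 73 bp away) and *Chd7* (6.66). With Top2b in both, the highest were near Kif16b, a kinesin of endosomes (chr2:142437554-142438389, 6.54), and Adgrl4, an adhesion receptor (5.86). Of the 10 peaks of highest Chd7 fold, 2 had Top2b in WT only, 3 in *Chd7*-deficient CGNs only and 5 in neither. Of all 361, these were 22, 94 and 206.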

How the data were processed

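The authors trimmed paired reads, mapped them to mm10 with Bowtie 1.0.0 keeping single alignments, and called Chd7 and H3K27ac peaks with macs2 and Top2b peaks with HOMER, each library by itself. The deposited macs2 tables give a pileup signal at the summit, the fold enrichment ratio, and p-values and q-values as −log10. Pileups were whole numbers of fragments for Chd7, but for H3K27ac only 1593 of 31400 were whole, so those are not plain fragment counts. Decimal points lost from the last 3 columns were restored by dividing by 100000. Recomputed −log10 p-values differed by at most 0.000221 in the WT Chd7 table. The deposited Top2b tables hold positions only. The study's methods give only a lower bound on read pairs mapped, and neither the number for each library nor the control used for each table is given in the sources used here, so depth per library is unknown. The 2 input libraries were not analysed here.

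Peaks were placed in GENCODE M21 on GRCm38 and compared by overlap of at least 1 bp. Motifs were counted on both strands in windows of 100 bp to each side of the summit, and overlapping matches of different motifs were each counted. Shares have 95% Wilson intervals and medians order-statistic intervals. Named peaks were the 10 of highest Chd7 fold, up to 5 per gene list, the 5 highest per Top2b state (WT, WT only, *Chd7*-deficient only), groups of 3 or more, the 3 farthest and those beside the 1 kb limit, of which 1 peak is not reported here. Peaks and lists were chosen with earlier results of these data known. The 2 lists of genes that the study found lower were taken by name from its supplementary tables. Of the names, 132 of 151 for GNPs and 194 of 203 for CGNs were found. Overlap, distance and motif functions were tested on simulated data. The tools were Python 3.11.15 with pysam 0.24.0 for sequence, pandas 2.3.3 and numpy 2.4.6 for tables, scipy 1.17.1 for intervals and matplotlib 3.10.9 for plots.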

Additional observations from a re-analysis of the deposited data

How the results depend on the processing

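No paired analysis was possible because each condition has 1 library and no result comes from a test. Of 59 values recomputed under other settings, 50 stayed within the interval of the main value (for the number of peaks, within 1.5 times). A −log10 q-value of at least 5 left 173 peaks, and the shares with Top2b among them were 16.2% and 37.0%. The median distance was 28.2 kb for peaks over 5 kb from any start and 107 kb to protein-coding starts. Top2b in WT CGNs was at 12.2% with its centre within 250 bp of the summit and at 22.4% within 500 bp of the peak, and in *Chd7*-deficient CGNs at 28.0% with its centre within 250 bp. CAGCTG was in 15.2% of windows of 50 bp and 39.6% of those of 200 bp to each side of the summit, by their length. Counting any start within 100 kb in place of the nearest gene, genes lower in *Chd7*-deficient GNPs were at 2.77% of the peaks, against 1.67% of H3K27ac peaks without Chd7. A restriction to the stronger Top2b peaks was not run, since the tables hold no score. The comparisons within ranges of H3K27ac and in windows of equal length were chosen after seeing the data.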
